A study of Rattus norvegicus with 25 samples.

Results

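The synaptic vesicle and SNARE genes were followed across the striatum of rat offspring from nicotine-exposed, pair-fed and control pregnancies. They were the genes whose symbols begin with Syt, Stx, Stxbp, Vamp or Cplx and a number, the numbered Snap genes, the synapsins Syn1 to Syn3, the vesicle glycoproteins Sv2a to Sv2c and the GTPases Rab3a to Rab3d, taken from probe sets annotated with a single symbol. This gave 57 of the 14506 genes named in the annotation, on 61 of 29214 probe sets, and each gene was represented by the probe set with the highest mean over the 25 arrays. A gene is called measured here where its mean log2 value reached 6.97, the median over the whole array, which 50 of these genes and 14607 probe sets in all did.

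Transmitter is stored in synaptic vesicles, which dock at the presynaptic membrane and fuse with it when calcium enters the terminal. Fusion is driven by SNARE proteins: a vesicle SNARE of the Vamp family zips together with a syntaxin and a SNAP-25 relative of the target membrane, while synaptotagmins sense calcium, complexins hold the partly zipped complex, and syntaxin-binding proteins and Rab3 GTPases guide docking and priming. Other members of the same families run the traffic between the endoplasmic reticulum, Golgi and endosomes of every cell. In the striatum the local cell bodies are mostly GABAergic projection neurons, and many of the terminals belong to cortical, thalamic and midbrain neurons whose cell bodies, and most of their mRNA, lie elsewhere.

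RNA from the striatum of adolescent male Lister hooded rats (PND 35 to 42) was hybridised to Affymetrix rat gene 1.0st arrays, with 1 array per animal. Animals were grouped by array title, and the treatment of the dams is taken from the study's methods. The 8 Con animals came from dams with free food and tap water. The 7 Nic animals came from dams whose drinking water held nicotine before and during pregnancy. The 10 Con-Pf animals came from dams that drank tap water and were given the amount of food eaten by the nicotine dams. The dams were the treated animals, and the litter of each offspring is not named in the labels. The study's methods list fewer Con-Pf dams than the 10 Con-Pf arrays, so by these counts some animals shared a dam. All p-values here, that of the called gene included, count each animal as independent. They measure the spread between animals and not between litters. The values describe whole striatal tissue, in which fewer cells of a type and less RNA per cell cannot be told apart.

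The tissue carried the RNA of the labelled region. Of 10 markers of striatal projection neurons 9 were measured, among them Penk, Drd2 and Adora2a, at percentiles of 87.5 to 99.7 among all probe-set means. Of 10 markers of cortical and thalamic excitatory neurons 3 were measured. Con 3 and Con 5 stood apart from the other arrays: the mean deviation of 69 ribosomal protein genes from their means over all arrays was -0.34 and -0.45 on the log2 scale on these arrays, and no Nic or Con-Pf array lay below -0.11. That of 74 oxidative phosphorylation genes was -0.30 and -0.41, with no Nic or Con-Pf array below -0.07. That of 6 astrocyte markers, all of them measured, was 0.25 on both arrays, with no Nic or Con-Pf array above 0.15. Con 1 also lay below every Nic and Con-Pf array for the ribosomal (-0.16) and oxidative phosphorylation genes (-0.13). Its astrocyte value was 0.10. Con-Pf 9 and Con-Pf 10 have a Con-Pf title but a description as control tissue. The study's methods count 10 Con and 8 Con-Pf arrays in the analysis, the reverse of the titles. The same methods also list 10 animals in each of these groups, with Con samples removed. The called gene, Rab3b, and the gene closest to a call, Syt12, are given with and without Con 3, Con 5, Con-Pf 9 and Con-Pf 10. For other genes no values without Con-Pf 9 and Con-Pf 10 are given.

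The release machinery was expressed at close to the same level in all 3 groups. After adjustment over all measured probe sets, 1 of the 50 genes differed between groups in any comparison: Rab3b was higher in Con-Pf than in Con. That call stood against 184 of 14607 probe sets called (1.26%) in this comparison. None of the 50 genes was called between Con-Pf and Nic, where 0.185% of all probe sets were called, or between Nic and Con, where 0% were called. At an unadjusted p under 0.05, 12 genes (24%, 10 of them higher) passed in Con-Pf versus Con against a background of 22%, 9 genes (18%, all higher) in Nic versus Con against 16.2%, and 0 in Con-Pf versus Nic against 4.36%. None met the joint threshold of the study (a log2 fold change of 0.5 together with p under 0.01), which 0.199% of all probe sets met in Con-Pf versus Con, 0.103% in Con-Pf versus Nic and 0.0205% in Nic versus Con.

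These splits depended on the scaling. In Con-Pf versus Con 8 of 11 such genes were higher after a further quantile normalisation and 8 of 14 after centring on the array median, and in Nic versus Con 5 of 8 and 5 of 9. Of all measured probe sets that passed, the share that was higher went from 64.7% to 48.4% and 43.9% in Con-Pf versus Con, and from 75.6% to 53.4% and 45.1% in Nic versus Con. Of all 50 genes 30 (60%) had higher means in Con-Pf than in Con as deposited and 25 after either scaling, beside 55.8%, 49% and 47% of all measured probe sets. In Nic versus Con 36 (72%) had higher means as deposited, 29 after quantile normalisation and 27 after centring, beside 59.1%, 51% and 48% of all.

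The limits on the size of any difference were narrow. The 95% interval of the log2 difference lay within 0.5 of zero for all 50 genes in each comparison, and within 0.25 of zero for 39 genes in Con-Pf versus Con, 47 in Con-Pf versus Nic and 38 in Nic versus Con. The median difference was 0.02 in Con-Pf versus Con (0.02 over all measured probe sets), -0.02 in Con-Pf versus Nic (-0.01 over all) and 0.04 in Nic versus Con (0.02 over all). The median residual SD was 0.107 for these genes and 0.121 for all measured probe sets.

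**Figure D1:**
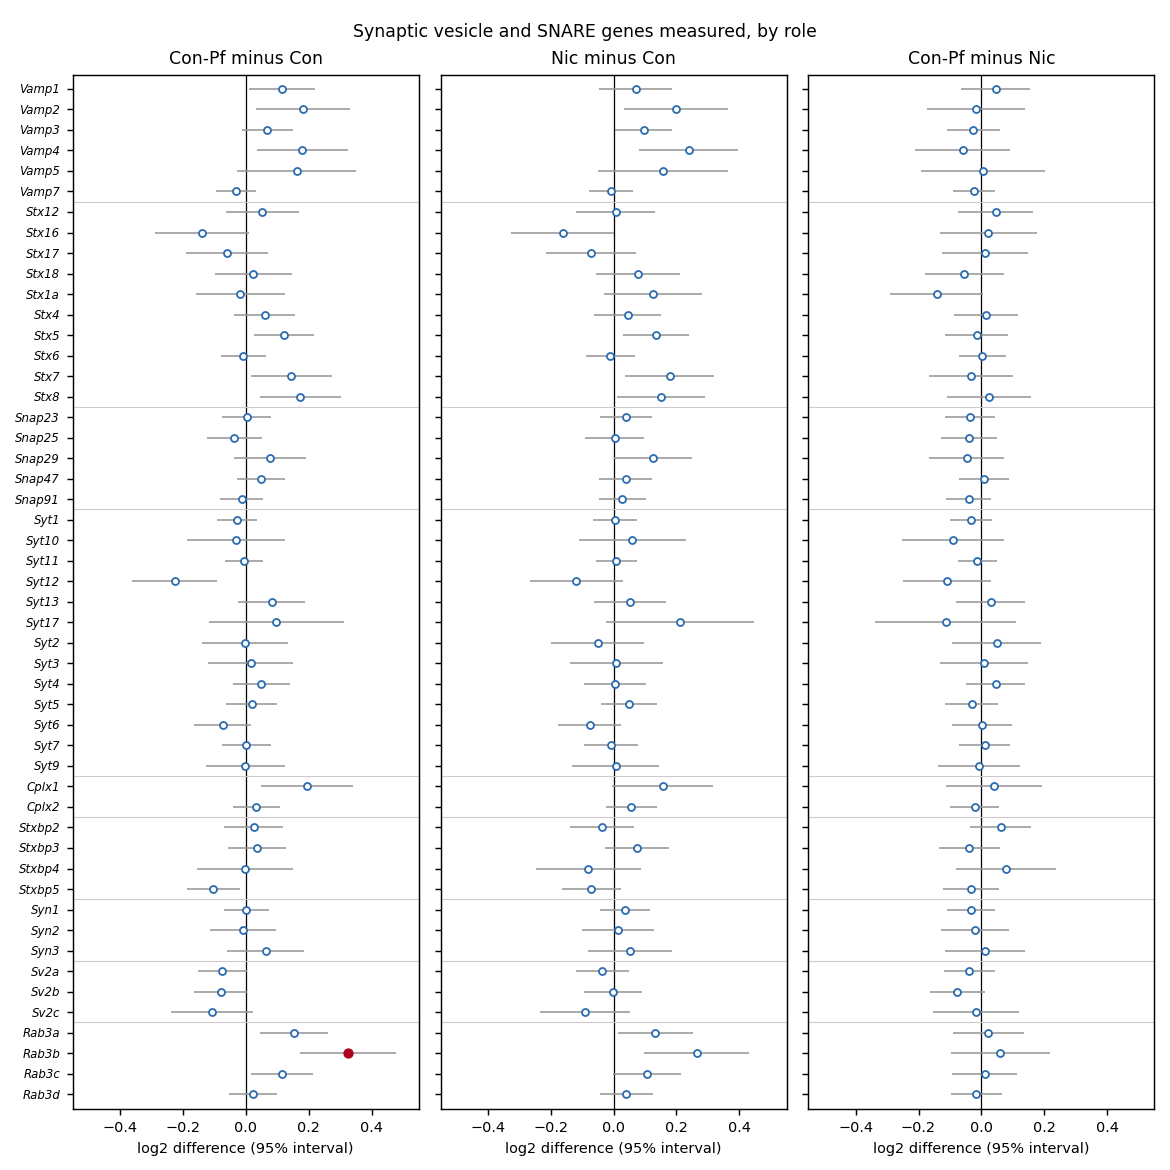
Log2 differences of the 50 measured genes, in rows grouped by role, for the 3 comparisons; circles are limma estimates, bars their 95% intervals, and the filled red circle is the single call. Rab3b in Con-Pf minus Con (0.32) is the only filled circle, and every interval lies within 0.5 of zero.

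Rab3 proteins are small GTPases that ride on the vesicle membrane and recruit effectors of docking and priming. All 4 Rab3 genes had higher means in Con-Pf than in Con and higher means in Nic than in Con, also when the arrays were quantile normalised again or centred on their medians. The 250 bases before each RefSeq start site (build GRCr8) are shown because Rab3b, alone among these related genes, was called. Rab3a is at chr16:18722274-18722523 on the minus strand, Rab3b at chr5:128858841-128859090 on the plus strand, Rab3c at chr2:43575944-43576193 and Rab3d at chr8:28725268-28725517, both on the minus strand. Capitals mark matches, on either strand, to the cyclic AMP response element half-site TGACG and to the GC box GGGCGG. The sequences run 5′ to 3′ along each gene.
Rab3a: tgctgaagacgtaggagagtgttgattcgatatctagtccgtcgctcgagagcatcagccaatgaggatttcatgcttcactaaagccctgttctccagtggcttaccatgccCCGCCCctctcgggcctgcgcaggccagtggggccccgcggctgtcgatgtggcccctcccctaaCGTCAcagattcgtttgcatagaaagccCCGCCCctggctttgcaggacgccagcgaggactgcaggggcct
Rab3b: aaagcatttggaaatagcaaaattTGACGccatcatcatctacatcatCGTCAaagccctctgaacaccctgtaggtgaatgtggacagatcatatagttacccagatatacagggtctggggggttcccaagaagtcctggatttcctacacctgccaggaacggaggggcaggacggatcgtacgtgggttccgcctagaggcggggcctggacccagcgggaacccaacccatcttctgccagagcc
Rab3c: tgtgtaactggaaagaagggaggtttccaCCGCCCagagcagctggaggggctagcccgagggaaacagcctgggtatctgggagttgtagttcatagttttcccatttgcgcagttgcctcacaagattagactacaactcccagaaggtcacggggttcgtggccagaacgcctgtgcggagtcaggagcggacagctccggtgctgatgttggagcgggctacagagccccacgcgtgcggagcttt
Rab3d: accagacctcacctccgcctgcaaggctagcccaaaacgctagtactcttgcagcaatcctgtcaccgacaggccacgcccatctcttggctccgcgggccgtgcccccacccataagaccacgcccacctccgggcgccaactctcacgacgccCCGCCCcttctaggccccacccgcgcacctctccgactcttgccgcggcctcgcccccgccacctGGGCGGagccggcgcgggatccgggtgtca
The Rab3b window held 2 TGACG matches, beginning 226 and 202 bases before the start site, and no GGGCGG match. Rab3a held 1 TGACG match, 72 bases before its start, and 2 GGGCGG matches. Rab3c held 1 GGGCGG match and Rab3d 2, with no TGACG match in either. The E-box CACGTG was found in none of the 4 windows. Among 33469 windows of the same length before RefSeq start sites, TGACG was found in 18.2%, GGGCGG in 30.5% and CACGTG in 5.59%. A window was found for 46 of the 57 genes, and 30.4% of those held TGACG, 63% GGGCGG and 10.9% CACGTG. GC content was 53.6% for Rab3b, 58% for Rab3c, 60.4% for Rab3a and 70% for Rab3d, with 9, 13, 16 and 25 CpG dinucleotides.

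Rab3b, an isoform of neurons and endocrine cells, was the gene that rose. Its log2 level ran from 9.22 to 9.99 with a median of 9.61 in Con, from 9.68 to 9.98 with a median of 9.90 in Nic, and from 9.82 to 10.07 with a median of 9.93 in Con-Pf. The groups overlapped, since Con 6 (9.89) and Con 7 (9.99) lay within the range of Con-Pf, but 6 of the 8 Con arrays were below every Con-Pf array and 5 were below every Nic array. In Con-Pf versus Con the log2 fold change was 0.32 (SE 0.074, 1.25-fold, adjusted p = 0.0247). In Nic versus Con it was 0.26 (SE 0.081, adjusted p = 0.268), which did not pass. The Con-Pf mean exceeded the Nic mean by 0.06 (95% interval -0.10 to 0.22), a difference that was not resolved.

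The Rab3b call depended on the test, the filter and single arrays. With all 25 arrays the adjusted p was 0.291 with a t-test of unequal variances and 0.116 with a t-test of pooled variance. The study's methods name a Student's t-test. In limma the adjusted p was 0.0725 with only the 2 groups, 0.0641 with no filter and 0.0621 with the replicate block. Con 5 (9.22) and Con 3 (9.33) were the lowest of all arrays. Without both, the difference from Con-Pf was 0.21 (adjusted p = 0.175) and that of Nic 0.15 (adjusted p = 0.953). The Con-Pf difference was 0.33 without Con-Pf 9 and Con-Pf 10 (adjusted p = 0.0566) and 0.27 when those arrays were counted as Con (adjusted p = 0.274). It kept its sign in all 38 alternatives and was called in 26 of them. However, 25 of the 38 only left out a single array, and each change listed above lost the call. The ribosomal, oxidative phosphorylation and astrocyte genes moved on the same arrays, with 3 of the 6 astrocyte markers lower in Con-Pf than in Con at an unadjusted p under 0.05 and none called, and their part in the result was not tested.

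Rab3a, the main Rab3 of brain synapses, ran from 12.05 to 12.49 in Con (median 12.36), from 12.25 to 12.52 in Nic (median 12.48) and from 12.35 to 12.55 in Con-Pf (median 12.48). The groups overlapped, with Con 3 and Con 5 lowest again. The log2 fold change was 0.15 (SE 0.053, adjusted p = 0.12) in Con-Pf versus Con and 0.13 (SE 0.058, adjusted p = 0.283) in Nic versus Con, neither of which passed. Without Con 3 and Con 5 these differences were 0.07 and 0.05. Rab3c had a log2 difference of 0.12 in Con-Pf versus Con and 0.11 in Nic versus Con, and 0.05 and 0.04 without those arrays. Rab3d, better known from exocrine secretory granules, had differences of 0.02 and 0.04.

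**Figure D2:**
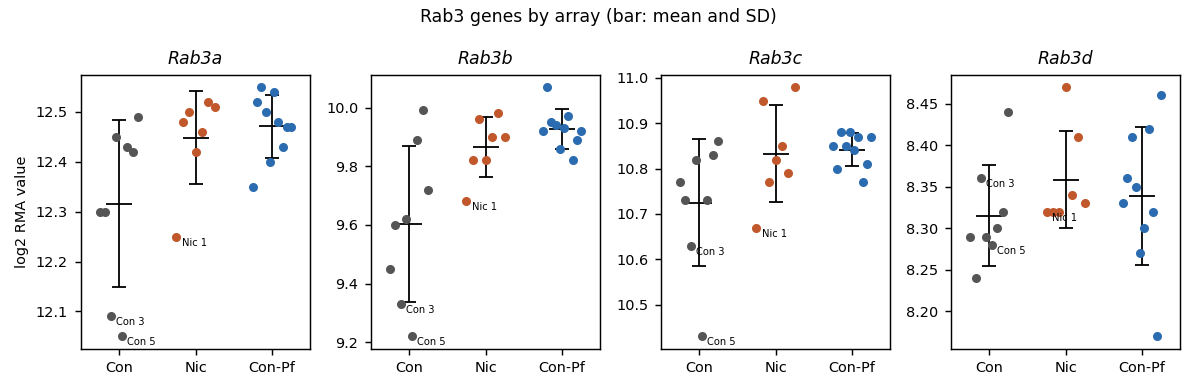
Log2 level of the 4 Rab3 genes on every array (points) by group, with the mean and SD as bars; vertical scales differ between panels and Con 3, Con 5 and Nic 1 are labelled. Con 3 and Con 5 are the lowest points for Rab3a and Rab3b, and the Con-Pf arrays of Rab3b lie between 9.82 and 10.07.

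The vesicle SNAREs had a median difference from Con of 0.14 in Con-Pf and 0.13 in Nic over 6 measured genes (0.05 in both without Con 3 and Con 5), 5 of them higher in each comparison, under both other scalings too, and none called. Vamp2, the principal vesicle SNARE of fast transmitter release in forebrain, ran from 11.53 to 12.22 in Con (median 12.12), from 12.03 to 12.32 in Nic (median 12.23) and from 12.04 to 12.28 in Con-Pf (median 12.24). The upper ends of the groups lay together, and 3 of 8 Con arrays fell below every array of the other groups. The log2 fold change was 0.18 (SE 0.073, adjusted p = 0.162) in Con-Pf versus Con and 0.20 (SE 0.08, adjusted p = 0.276) in Nic versus Con. Without Con 3 (11.76) and Con 5 (11.53) these were 0.06 and 0.07.

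Vamp4, a SNARE of endosomes and the trans-Golgi network, ran from 8.76 to 9.33 in Con (median 9.13), from 9.13 to 9.62 in Nic (median 9.32) and from 9.03 to 9.47 in Con-Pf (median 9.33). The groups overlapped, with 4 of 8 Con arrays below every Nic array. Its log2 difference was 0.24 (SE 0.077, adjusted p = 0.268) in Nic versus Con and 0.18 (SE 0.071, adjusted p = 0.156) in Con-Pf versus Con, and without Con 3 and Con 5 these were 0.18 and 0.12. Vamp1, the vesicle SNARE best known from brainstem and spinal circuits, differed by 0.11 in Con-Pf versus Con (adjusted p = 0.197) and by 0.07 in Nic versus Con (adjusted p = 0.497), and by 0.08 and 0.03 without those arrays. Vamp3, or cellubrevin, of recycling endosomes, differed by 0.07 and 0.10, and by 0.04 and 0.07 without them, and none of these passed.

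Of 10 measured syntaxins none was called in any comparison. Stx1a, the plasma membrane syntaxin of synapses, ran from 8.47 to 8.90 in Con (median 8.76), from 8.59 to 9.24 in Nic (median 8.78) and from 8.65 to 8.83 in Con-Pf (median 8.73). The groups overlapped, and Nic 2 (9.24) and Nic 7 (9.15) were the highest of all arrays. The log2 difference was -0.02 in Con-Pf versus Con, 0.13 in Nic versus Con and -0.14 in Con-Pf versus Nic (95% interval -0.29 to 0.01). The 2 probe sets named Stx1a hold identical values and were counted once.

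In the comparisons with Con the smallest p-values among the syntaxins were those of Stx5, Stx7 and Stx8. Stx5, of endoplasmic reticulum to Golgi traffic, differed by 0.12 in Con-Pf versus Con (adjusted p = 0.152) and by 0.14 in Nic versus Con (adjusted p = 0.268). Stx7, of late endosomes, differed by 0.14 (adjusted p = 0.185) and 0.18 (adjusted p = 0.268), and its endosomal partner Stx8 by 0.17 (adjusted p = 0.132) and 0.15 (adjusted p = 0.292). All 3 were lower on Con 3 and Con 5 than on most arrays, and without these arrays the Con-Pf differences were 0.06 for Stx5, 0.06 for Stx7 and 0.10 for Stx8, and the Nic differences 0.07, 0.10 and 0.08. The value of Stx8 is uncertain, since RefSeq lists Stx8 pseudogenes and the gene has 3 probe sets, whose differences in Con-Pf versus Con were 0.23, 0.17 and 0.17.

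SNAP-25 and its relatives had small differences, none of them called. Snap25, the target-membrane SNARE of nerve terminals, ran from 13.03 to 13.33 in Con (median 13.16), from 13.02 to 13.25 in Nic (median 13.18) and from 12.99 to 13.23 in Con-Pf (median 13.14). The groups overlapped almost completely, with log2 differences of -0.04 in Con-Pf versus Con (95% interval -0.12 to 0.05) and below 0.01 in Nic versus Con (95% interval -0.09 to 0.10). Snap29 had the smallest p of this family, with a difference of 0.12 in Nic versus Con (adjusted p = 0.307), and of 0.07 without Con 3 and Con 5. Snap91 encodes AP180, a clathrin adaptor that shares the symbol but is no SNARE, and its differences were -0.01 and 0.03.

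Among 13 measured synaptotagmins none was called, and 9 of them had higher means in Nic than in Con, but 4 after either other scaling. Syt1, the calcium sensor of fast synchronous release, had the narrowest limits of the core machinery: it ran from 12.36 to 12.60 in Con (median 12.51), from 12.45 to 12.56 in Nic (median 12.52) and from 12.38 to 12.52 in Con-Pf (median 12.47). The groups overlapped, and the log2 difference in Con-Pf versus Con was -0.03 (95% interval -0.09 to 0.04).

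Syt12, a synaptotagmin that does not bind calcium, was the gene nearest to a call in the opposite direction. It ran from 9.04 to 9.52 in Con (median 9.20), from 8.93 to 9.27 in Nic (median 9.15) and from 8.82 to 9.33 in Con-Pf (median 9.02). The groups overlapped, with 5 of the 10 Con-Pf arrays inside the range of Con and 5 below every Con array. The log2 difference in Con-Pf versus Con was -0.23 (SE 0.066, adjusted p = 0.0804). It passed without Con-Pf 8 (-0.26, adjusted p = 0.0292) and without Con 2 (-0.26, adjusted p = 0.0486), and was -0.14 without Con 3 (9.50) and Con 5 (9.52), the highest Con arrays. Without Con-Pf 9 and Con-Pf 10 it was -0.21 (adjusted p = 0.151), and -0.14 with them counted as Con (adjusted p = 0.432).

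Other synaptotagmins varied more between animals than between groups. Syt17, a divergent family member, ran from 7.17 to 8.27 in Con (median 7.65), from 7.58 to 8.31 in Nic (median 7.85) and from 7.48 to 8.00 in Con-Pf (median 7.76). The Con range held all other arrays except Nic 2, with Con 4 lowest and Con 5 highest, and the difference in Nic versus Con was 0.21 (SE 0.114, adjusted p = 0.34). It was 0.30 (adjusted p = 0.953) without Con 3 and Con 5. Syt10, a calcium sensor of growth factor secretion, differed by -0.03 in Con-Pf versus Con and by 0.06 in Nic versus Con.

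Complexin 1, which binds the assembled SNARE complex, showed the dependence on Con 3 and Con 5 most clearly. Cplx1 ran from 10.83 to 11.54 in Con (median 11.39), from 11.30 to 11.55 in Nic (median 11.50) and from 11.44 to 11.60 in Con-Pf (median 11.52). Con 5 (10.83) and Con 3 (11.03) lay below every Nic and Con-Pf array. Con 1 (11.33) and Con 2 (11.31) also lay below every Con-Pf array, but within the range of Nic. The log2 difference in Con-Pf versus Con was 0.20 (SE 0.071, adjusted p = 0.134) and fell to 0.07 without Con 3 and Con 5. That in Nic versus Con went from 0.16 to 0.03. Cplx2, the complexin of most forebrain excitatory neurons, differed by 0.03 and 0.06, and by -0.01 and 0.02 without Con 3 and Con 5, and none of these passed.

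**Figure D3:**
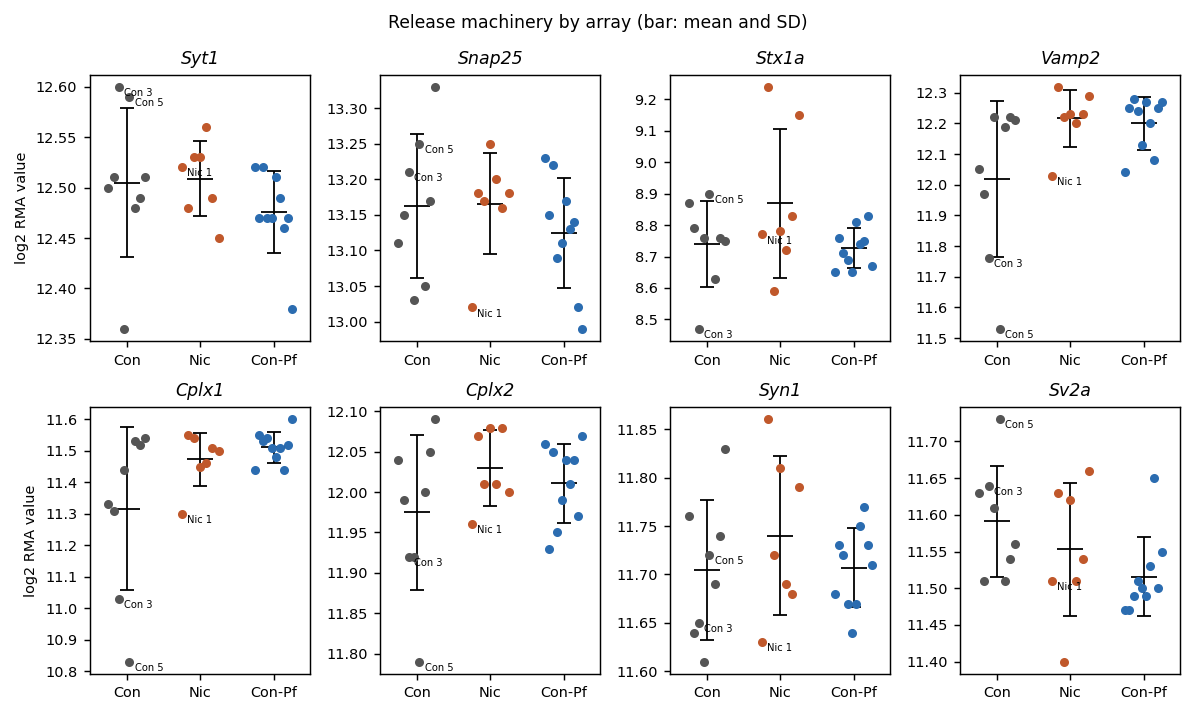
Log2 level of 8 genes of the release machinery on every array (points) by group, with the mean and SD as bars; vertical scales differ between panels and Con 3, Con 5 and Nic 1 are labelled. Con 3 and Con 5 are the lowest arrays for Vamp2 and Cplx1 and among the highest for Syt1, and the group means of Snap25 and Syt1 lie within 0.04 of each other.

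None of the 4 measured syntaxin-binding genes was called. Stxbp5, or tomosyn, which binds syntaxin and holds back SNARE assembly, ran from 9.01 to 9.31 in Con (median 9.05), from 8.97 to 9.11 in Nic (median 9.05) and from 8.88 to 9.09 in Con-Pf (median 9.02). The groups overlapped, with a log2 difference of -0.10 in Con-Pf versus Con (SE 0.041, adjusted p = 0.16), and of -0.05 without Con 3 and Con 5. Stxbp2 (Munc18-2) differed by 0.02 and Stxbp4 by less than 0.01 in the same comparison. Both had means close to the filter, at 7.10 and 7.21.

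The 3 synapsins, which tether the reserve pool of vesicles, gave no call. Syn1 ran from 11.61 to 11.83 in Con (median 11.70), from 11.63 to 11.86 in Nic (median 11.72) and from 11.64 to 11.77 in Con-Pf (median 11.71). The groups overlapped almost completely, and the 95% interval of the difference in Con-Pf versus Con was -0.07 to 0.07. For Syn2 that interval was -0.11 to 0.10.

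The 3 SV2 genes, which encode the vesicle glycoproteins that include the binding site of the antiepileptic levetiracetam, had lower means in Con-Pf than in either other group, under both other scalings too, and none passed. Sv2a ran from 11.51 to 11.73 in Con (median 11.59), from 11.40 to 11.66 in Nic (median 11.54) and from 11.47 to 11.65 in Con-Pf (median 11.50). Its difference in Con-Pf versus Con was -0.07 (SE 0.038, adjusted p = 0.246). Sv2b differed by -0.08 (SE 0.041, adjusted p = 0.254) and Sv2c, whose mRNA is rich in basal ganglia, by -0.11 (SE 0.064, adjusted p = 0.316). The groups overlapped for each of the 3 genes, and without Con 3 and Con 5 the median difference in Con-Pf versus Con was -0.03 and 2 of the 3 had higher means in Nic than in Con.

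Of the 7 genes below the filter, Stx3 (mean 6.94) and Vamp8 (6.87) lay just under it, while Stx11, Stx19, Syt8, Syt15 and Cplx3 had means of 6.41 or less. Fitted with no filter, none was called, and the smallest adjusted p was 0.261, for Stx19 in Con-Pf versus Con.

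The spread between animals was itself unequal. The Con group had the largest SD of the 3 groups for 33 of the 50 genes (66%, against 63.1% of all measured probe sets), and the median SD was 0.125 in Con, 0.089 in Nic and 0.078 in Con-Pf. Con 3 or Con 5 was the lowest or highest Con array for 37 of the 50 genes (74%, against 70.2% of all). Vamp2, Vamp4, Cplx1, Rab3a and Rab3b were at their lowest on Con 5, Stx16 and Syt12 at their highest on Con 5, and Sv2c at its highest on Con 3. Without these arrays 4 genes (8%) had an unadjusted p under 0.05 in Con-Pf versus Con, against 8.1% of all measured probe sets, and 4 (8%) in Nic versus Con, against 4.65% of all. The 4 in Con-Pf versus Con were Rab3b, Syt12, Syt13 and Syn3, and the 4 in Nic versus Con were Rab3b, Vamp4, Syt13 and Syt17, and none was called.

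**Figure D4:**
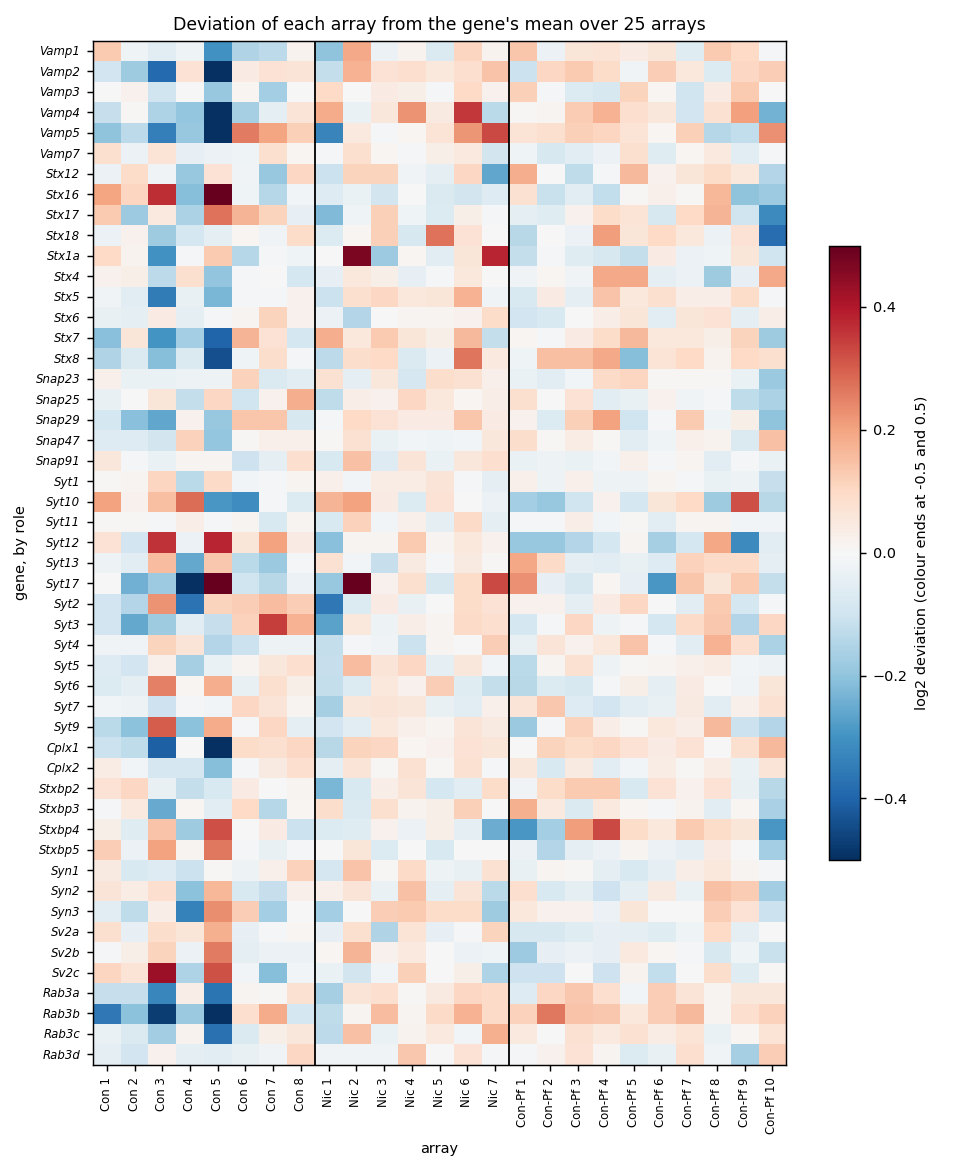
Deviation of each array (columns, by group) from the mean of each of the 50 measured genes (rows, by role) on the log2 scale, red for above and blue for below the mean; black lines separate the groups. Con 3 and Con 5 hold many of the darkest cells in both directions, and no row changes colour cleanly between groups.

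**Figure D5:**
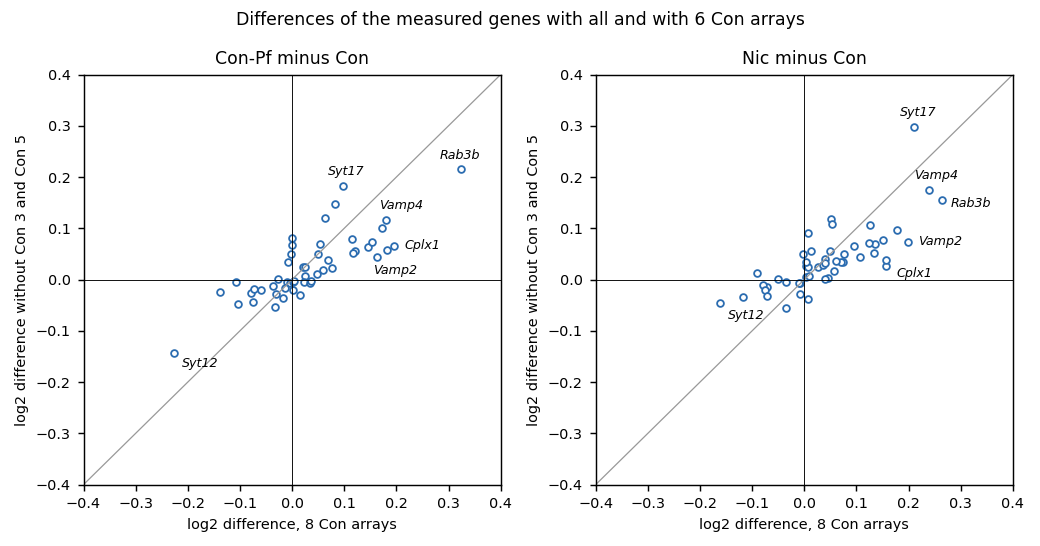
Log2 differences of the 50 measured genes with all 8 Con arrays (horizontal) and without Con 3 and Con 5 (vertical), for Con-Pf minus Con and Nic minus Con, with the line of equality. Rab3b moved from 0.32 to 0.21 and Cplx1 from 0.20 to 0.07 in Con-Pf minus Con, whereas Syt17 moved away from zero.

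Con-Pf dams were fed to the intake of the Nic dams but were given no nicotine, and the offspring of both were compared directly. Of the 50 genes 22 had a higher and 28 a lower mean in Con-Pf, with log2 differences from -0.14 to 0.08. Leaving out Nic 1, which was the lowest Nic array for 27 of the 50 genes, gave 11 higher and 39 lower, with 40.4% of all measured probe sets higher, and an unadjusted p under 0.05 for 2 genes (Stx1a and Syt12), against 4.68% of all probe sets. None was called. Markers of cortical and thalamic excitatory neurons, of which 3 of 10 were measured, varied between arrays. Their mean deviation ran from -0.40 to 1.42 in Nic (median 0.29) and from -0.45 to 0.08 in Con-Pf (median -0.32). Nic 2 (1.42) and Nic 7 (0.91) were the highest Nic arrays, whereas Nic 3 (-0.40) and Nic 5 (-0.37) lay within the range of Con-Pf. None of the 3 markers was called between these groups, and their part in the values of the 50 genes was not tested.

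Genes that act beside the SNAREs were not called either. Of 19 measured vesicle membrane proteins and transporters none was called, and Syp, encoding synaptophysin, had log2 differences of 0.15 (adjusted p = 0.142) in Con-Pf versus Con and 0.22 (adjusted p = 0.268) in Nic versus Con. Slc17a7, the vesicular glutamate transporter of cortical neurons, differed by -1.18 (SE 0.376, adjusted p = 0.576) in Con-Pf versus Nic. None of 16 measured genes for SNARE disassembly and SNARE partners was called, and the smallest p-values in Con-Pf versus Con were those of Use1 (0.16, adjusted p = 0.116) and Gosr2 (0.14, adjusted p = 0.119), both SNAREs of the early secretory pathway. None of 28 measured genes of vesicle endocytosis was called. At an unadjusted p under 0.05, 4 of the 19, 4 of the 16 and 2 of the 28 genes passed in Con-Pf versus Con. Without Con 3 and Con 5, 0 passed in each list, beside 22% of all measured probe sets with these arrays and 8.1% without. In Nic versus Con 4, 2 and 2 passed with these arrays and 2, 0 and 0 without them, beside 16.2% and 4.65% of all.

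The active zone and priming genes stood on the other side of zero. Of 26 measured genes 21 (80.8%) had lower means in Con-Pf than in Con, with a median log2 difference of -0.08, beside 44.2% of all measured probe sets, and none was called. Unc13a, a priming factor, differed by -0.17 (adjusted p = 0.122), the calcium channel genes Cacna1b by -0.18 (adjusted p = 0.127) and Cacna1a by -0.13 (adjusted p = 0.128), and the scaffold gene Lin7a by 0.14 (adjusted p = 0.104). In Nic versus Con 20 of the 26 had lower means, with a median of -0.07, beside 40.9% of all. Both comparisons share the Con arrays, and both splits depended on Con 3 and Con 5: without them 14 of the 26 were lower in Con-Pf and 13 in Nic, with medians of -0.01 and less than 0.01, beside 44.8% and 38% of all. At an unadjusted p under 0.05, 9 of the 26 genes (34.6%) passed in Con-Pf versus Con with these arrays and 1 (3.85%) without them, beside 22% and 8.1% of all measured probe sets.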

How the data were processed

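RNA was measured on 25 arrays (8 Con, 7 Nic and 10 Con-Pf), grouped by their titles. The deposited log2 values were made by the authors with RMA, which corrects background, quantile normalises and summarises probes, and the submitters' processing notes name Affymetrix Expression Console 1.1. The number of arrays per group limits precision. Probe sets with a mean at or above quantile 0.5 were tested in 1 limma model (3.58.1, R 4.3.3) over the 3 groups, with Benjamini-Hochberg adjustment over all 14607 and a call at an adjusted p under 0.05. Symbols came from the platform annotation (15310 probe sets with 1 symbol, 323 with several, 13581 with none). Genes named with values are any called, the 8 with the smallest p in each comparison and the core release machinery, with others added after their values were seen. The members and lists were chosen with earlier results of these data known. Fits were tested on simulated data. Over 22 pairs of arrays with the same replicate number r ran from -0.36 to 0.34. Whether these numbers pair the samples was not tested, since these values hold no pairs with different numbers. Alternatives were other tests, filters, scalings, array weights, a replicate block, Con-Pf 9 and 10 moved or left out, and each array left out; the same runs for the other gene lists, and the counts by gene family under other scalings, were added after the data were seen. Promoter windows came from RefSeq (GRCr8). Figures used matplotlib 3.10.9.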

Additional observations from a re-analysis of the deposited data

Results flagged for a closer look

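Of 78 sets of values (each named gene in each group, and the mean deviation over the measured genes) 14 held an array far from the others of its group, where chance alone marks about 1 in 20. Nic 1 was the lowest Nic array, well below the next, for Vamp2 (12.03), Snap25 (13.02), Syt12 (8.93), Cplx1 (11.30) and Rab3a (12.25). The mean deviation of the 50 measured genes was also lowest there among Nic arrays, at -0.073 against 0.010 for the next. Single arrays stood low for Vamp4 in Con 5 (8.76), Syt1 in Con 4 (12.36), Stxbp4 in Nic 7 (6.96), Stx8 in Con-Pf 5 (10.60), and Stx7 (9.71) and Syt1 (12.38) in Con-Pf 10. Sv2a stood high in Con-Pf 8 (11.65) and Sv2b in Nic 2 (11.83). The striatal marker deviation of Nic 1 was -0.022 and its ribosomal deviation 0.062, and their part in these values was not tested.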

How the results depend on the processing

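The number of genes called in Con-Pf versus Con was 1. It fell to 0 with a t-test of unequal variances or of pooled variance, only the 2 groups compared in limma, and no filter. It also fell to 0 with Con-Pf 9 and 10 left out or counted as Con, the replicate block, and Con 3 and Con 5 left out. With each of the 25 arrays left out in turn it ran from 0 to 2: it was 0 without Con 1, Con 3, Con 5 or Con-Pf 2 (Rab3b at an adjusted p of 0.0654, 0.0753, 0.0587 and 0.0524) and 2 without Con 2 or Con-Pf 8, where Syt12 joined. The adjusted p of Rab3b was 0.291 with the t-test of unequal variances and 0.116 with that of pooled variance. In limma it was 0.0725 with the 2 groups, 0.0641 with no filter and 0.0621 with the replicate block. Over all alternatives the difference ran from 0.21 to 0.38. No gene was called in the other comparisons under any alternative, nor in the 4 further vesicle lists. Directions of genes with an unadjusted p under 0.05 held in all alternatives. Those of Syn1 and Stxbp4, with differences near zero in Con-Pf versus Con, turned in 15 of 38 and 12 of 37. The replicate block left 96 probe sets called in Con-Pf versus Con in place of 184. The cause of these changes was not tested. The number of arrays per group limits precision, and background signal per probe was not used here.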
